A study of Mus musculus with 2 samples.

Results

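The alanine tRNAs of the mature tRNA table are the cytosolic tRNAs that carry alanine to the ribosome, read through 3 anticodons, AlaAGC, AlaCGC and AlaTGC. They were taken as all rows whose locus name ends in one of these anticodons, which gave 24 of 217 loci: 11 of AlaAGC, 6 of AlaCGC and 7 of AlaTGC. The small RNAs came from primary murine fibroblasts (PMFs), grown out of ear clippings of C57BL/6 mice (C57BL/6-J in the methods) of about 3 weeks of age. AF25-high cells, 1 library, had received 3GA-AF25 at 200 nM, a third-generation antisense oligonucleotide against the 3′ end of the C/D box snoRNA AF357425, used to raise its level. AF25-low cells, 1 library, had received GM-AF25 at 500 nM, a gapmer, that is, antisense DNA with modified ends that brings RNase H to the snoRNA to lower it. All cells were first held for 48 h in 10 μM KN-93, a CaMK-II inhibitor that arrests the cycle in G1, and were then transfected for 24 h. Chemistry and dose of the oligonucleotide differed between the same libraries as the snoRNA, so they cannot be told apart, and cells with a control oligonucleotide were not analysed here. Reads of AF357425 itself were not analysed here either, so the direction of the groups is that of the labels, for which the study had measured the snoRNA by quantitative PCR. In such bulk libraries fewer cells of a kind and less RNA per cell cannot be told apart.

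A tRNA is charged by its aminoacyl-tRNA synthetase and decodes mRNA through its anticodon. The alanyl-tRNA synthetase recognizes its tRNAs mainly by a G:U wobble pair in the acceptor stem, not by the anticodon, so one enzyme serves all alanine isoacceptors. In AlaAGC the first anticodon base is deaminated to inosine, which lets this tRNA read several alanine codons, while AlaCGC and AlaTGC read codons that end in purines. Alanine tRNAs are also a known source of tRNA fragments (tRFs): their 5′ fragments, cut off in the anticodon loop by angiogenin under stress, begin with a run of guanines and can repress the start of translation. The deposited table counts small RNA reads on each mature tRNA, and gives neither the length of a read nor its place on the tRNA, so tRFs of all kinds are summed here. By the study's description the reads on tRNA genes are all shorter than a mature tRNA, so intact alanine tRNAs were not measured.

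The sequence of 1 alanine tRNA gene could be read from the reference and is shown because it carries these features. The gene n-TAagc16 (RefSeq, GRCm38.p6) lies at chr13:21222586-21222657, was read on the plus strand and has 72 bases. Capitals mark the third base and its partner, base 69, which form the G:U pair (T in the gene), and the anticodon AGC at bases 33 to 35. The mitochondrial alanine tRNA, mt-Ta, is shown for contrast. Its anticodon TGC (bases 31 to 33) and the only G:U pair of its acceptor stem (bases 1 and 68) are in capitals. It has 69 bases, lies at chrM:5018-5086 on the minus strand and comes from the GENCODE M21 transcripts.
n-TAagc16: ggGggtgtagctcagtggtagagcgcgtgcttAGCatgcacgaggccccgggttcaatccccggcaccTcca
mt-Ta: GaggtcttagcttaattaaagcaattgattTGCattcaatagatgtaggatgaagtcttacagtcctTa
The nuclear gene begins with 5 guanines and mt-Ta with 1. In the nuclear gene 6 of the 7 acceptor pairs are Watson-Crick pairs and the remaining one is the G:U pair. Its GC content is 65.3%, against 33.3% in mt-Ta. The 7 bases AACCCCA, the complement of the antisense element upstream of the D′ box of AF357425, were searched on both strands and were found in neither sequence. Of 32851 RefSeq promoter sequences, 1.32% hold them in their first 72 bases. This search covers these sequences alone, and other alanine loci were not searched.

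Alanine tRNA genes are spread over many copies, and RefSeq lists 33 of them on GRCm38.p6 (13 AlaAGC, 9 AlaCGC and 11 AlaTGC). Of these, 12 lie on chromosome 13 between 21222586 and 23438768 and 12 on chromosome X between 136357602 and 136590436. The table had 8 loci on chromosome 13 and 7 on chromosome X. Locus names in the table give the chromosome but no position, so a locus was set beside a RefSeq gene only where both sources had 1 locus of that anticodon on the chromosome, which was the case for 7 loci. The 2 loci on chromosome 10 had no RefSeq alanine tRNA gene on that chromosome.

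The tRNA table held 689078 reads in AF25-high PMFs against 472550 in AF25-low PMFs, and the library totals were taken as 28856715 reads for AF25-high and 29103700 reads for AF25-low. Of 9 microRNA genes listed as markers of fibroblasts and other mesenchymal cells, 5 had an entry in the table of Ensembl noncoding RNAs. Of these, 3 had at least 20 reads, and the list had 2442 reads in AF25-high PMFs against 2480 in AF25-low PMFs. No gene of the lists for neurons, striated muscle, blood cells and endothelium had an entry in that table, which was deposited after a filter on low expression, and that for epithelium had 1 gene listed, with 6 reads in AF25-high PMFs against 0 in AF25-low PMFs. Counts of miRBase microRNAs were not analysed here, so these markers check the cell type only in part.

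Alanine tRNAs were slightly less abundant in AF25-high cells, while the sum of all other tRNAs was higher. They came to 844 RPM (the reads-per-million unit, relative to the whole library) in AF25-high PMFs, from 24358 reads, against 902 RPM in AF25-low PMFs, from 26237 reads. The ratio of AF25-high to AF25-low was 0.936 (95% interval 0.9201 to 0.9528). Such an interval is the exact Clopper-Pearson interval for counting reads. It does not cover the spread between cultures or libraries, and with 1 library per group no test of the conditions was possible. All other tRNAs together had a ratio of 1.502 (1.496 to 1.508), from 664720 reads in AF25-high PMFs against 446313 in AF25-low PMFs.

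Relative to the other tRNAs, a quantity that does not depend on how the libraries are scaled, alanine tRNAs were at 0.623 (0.613 to 0.634) in AF25-high of their level in AF25-low PMFs. They made up 3.53% of tRNA reads in AF25-high (3.49 to 3.58) and 5.55% in AF25-low PMFs (5.49 to 5.62). In the order of RPM among 21 amino acids (selenocysteine included), alanine was number 12 in AF25-high PMFs against number 7 in AF25-low PMFs. Its ratio was the second lowest of the 21, above glycine (0.914, 0.901 to 0.927) and below glutamine (0.998, 0.965 to 1.03). The intervals of alanine and glycine overlapped, whereas the interval of glutamine lay above that of alanine. Valine tRNAs, like the alanine tRNAs a family of several anticodons, had a ratio of 1.25 (1.22 to 1.27) with library totals and 0.928 with the authors' size factors.

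**Figure D1:**
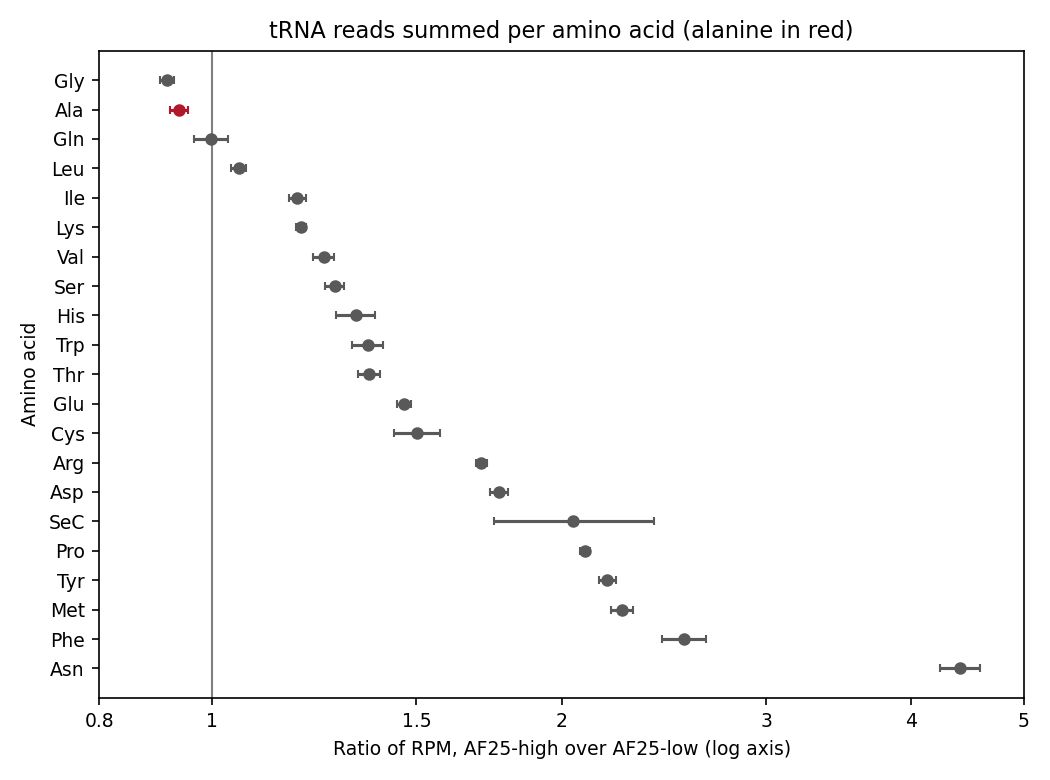
AF25-high to AF25-low ratio of RPM (horizontal log axis) for tRNA reads summed per amino acid, with exact 95% counting intervals as bars and 1 library per group. Alanine (red, 0.936) is second from the lowest of 21, and asparagine is the highest at 4.40.

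With library totals, the 3 alanine anticodons differed in abundance and in direction. As the reads are assigned in the table, AlaTGC held most alanine reads, AlaAGC had the largest number of loci but fewer reads, and AlaCGC was the least abundant in both libraries. AlaTGC had 512 RPM in AF25-high PMFs (14766 reads) against 597 RPM in AF25-low PMFs (17365 reads), a ratio of 0.858 (0.839 to 0.877). It made up 60.6% of alanine reads in AF25-high PMFs against 66.2% in AF25-low PMFs. AlaAGC, the inosine-bearing isoacceptor, had 232 RPM in AF25-high PMFs (6705 reads) against 216 RPM in AF25-low PMFs (6273 reads). Its ratio was 1.08 (1.04 to 1.12), which becomes 0.802 with the authors' size factors. AlaCGC had 100.05 RPM in AF25-high PMFs (2887 reads) against 89.3 RPM in AF25-low PMFs (2599 reads). Its ratio of 1.12 (1.06 to 1.18) becomes 0.833 with the authors' size factors.

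Comparisons between anticodons are free of the scaling, but not of the assignment of shared reads. The ratio of AlaAGC was 1.26 times that of AlaTGC (1.21 to 1.31), and that of AlaCGC was 1.31 times that of AlaTGC (1.23 to 1.38). AlaAGC and AlaCGC stood at 0.962 of each other (0.903 to 1.03), an interval that held 1. Each anticodon was below the other tRNAs: relative to the sum of all tRNAs other than alanine, AlaTGC was at 0.571 (0.559 to 0.584), AlaAGC at 0.718 (0.693 to 0.743) and AlaCGC at 0.746 (0.707 to 0.787). Of the 48 anticodons that reached 50 reads in either library, AlaTGC had the 4th lowest ratio, AlaAGC the 14th and AlaCGC the 15th, an order that holds for the assignment in this table only.

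**Figure D2:**
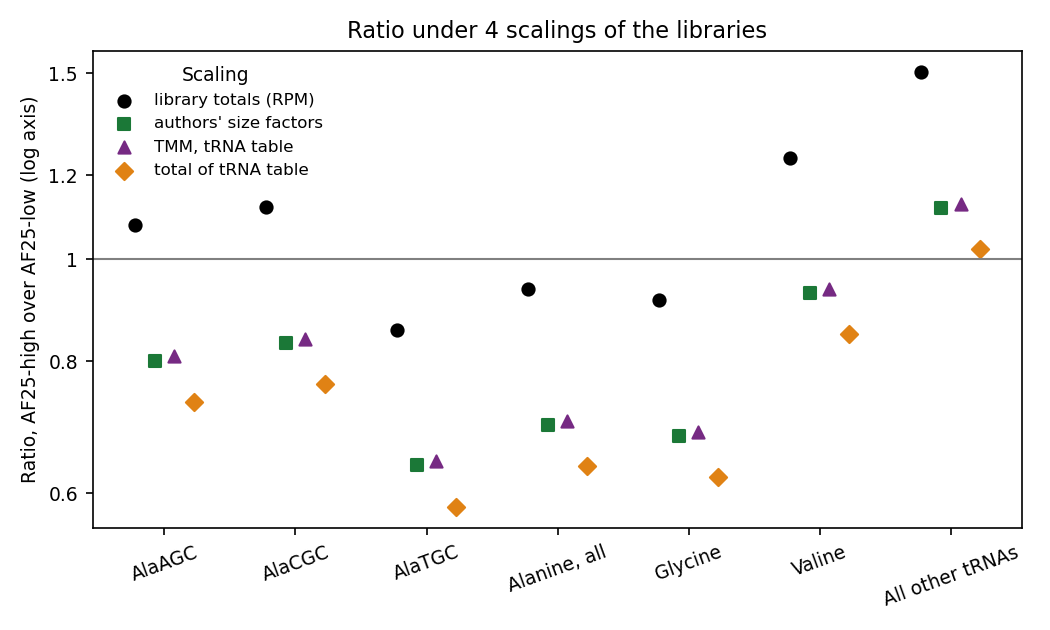
Ratio of AF25-high to AF25-low cells (vertical log axis) for the alanine anticodons, their sum, glycine, valine and all other tRNAs under 4 scalings of the libraries, shown by symbol and colour. AlaTGC and the alanine sum stay below 1 under each of the 4, while AlaAGC and AlaCGC lie above 1 only when scaled to library totals.

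The split of alanine reads among anticodons depends on how shared reads are assigned, since the authors gave a read that matches several loci to a single one, the most highly expressed. Measured by the reads behind 1 listed RPM, the 3 anticodons were split differently in the table than in the RPM listed per anticodon, while their sum was not (values under the processing). For AlaCGC this split differed 1.30-fold between the libraries, which is more than its ratio of 1.12. With that gap divided out its ratio lies below 1 and no longer above that of AlaTGC, while AlaAGC then lies above AlaCGC, so the direction, the rank and the comparisons of AlaCGC are not settled by these reads. For AlaAGC and AlaTGC the split was alike in both libraries, at 0.991 for AlaAGC and 0.985 for AlaTGC as AF25-high over AF25-low, so their directions do not turn in this way. Their order of abundance does: by the listed RPM AlaAGC is at the level of AlaTGC or slightly above it in AF25-high, and AlaTGC leads in AF25-low.

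Single loci spread more widely than the anticodons. Of the 24 loci, 16 had at least 20 reads in the higher library, 9 of them with a higher and 7 with a lower RPM in AF25-high. A ratio below 1 was thus found for 43.8% of alanine loci, against 28.2% of all 149 tRNA loci with this minimum. At least 1.5-fold lower in AF25-high was 1 alanine locus (6.25%), against 4.7% of all tRNA loci. At least 1.5-fold higher were 4 alanine loci (25%), against 44.3% of all tRNA loci. After adding 0.5 reads to each value, the median log2 ratio was 0.07 for alanine loci, 0.50 for all tRNA loci and 0.54 for tRNA loci other than alanine. The median of the alanine loci thus lay close to 0 on the RPM scale, with loci of high and of low abundance on both sides. With the authors' size factors, which move every log2 ratio down by 0.43, a ratio below 1 was found for 11 of the 16 alanine loci and for 71 of the 149 tRNA loci.

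**Figure D3:**
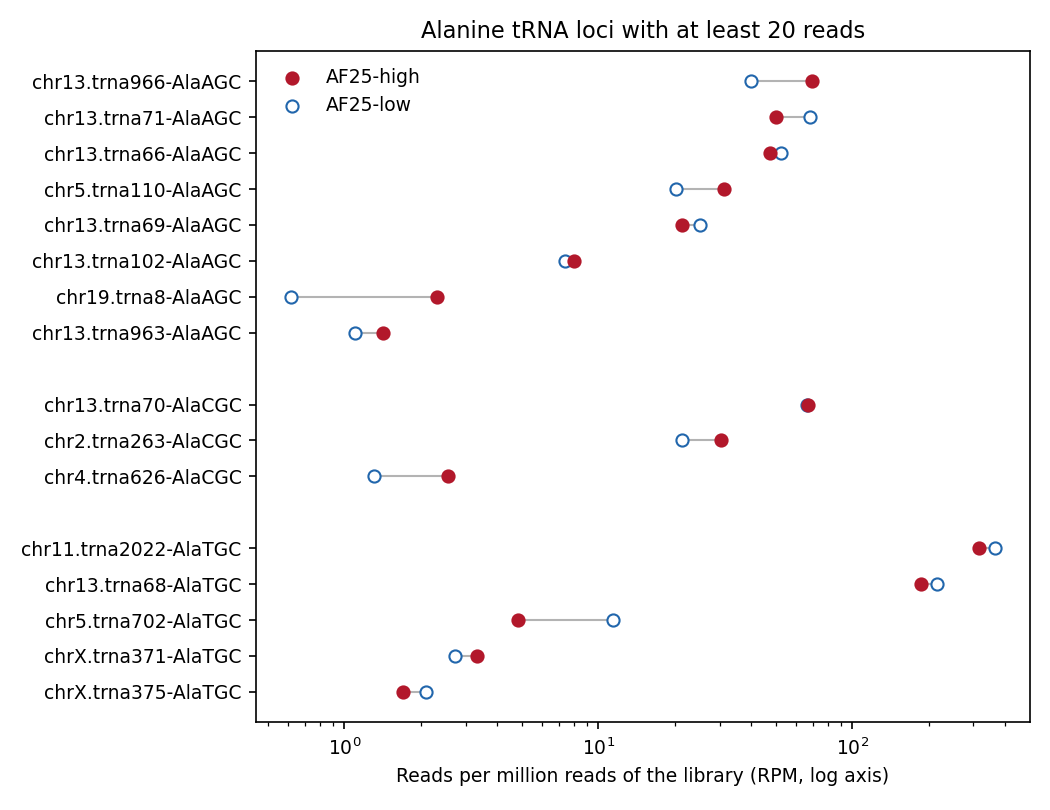
RPM (log axis) in AF25-high (filled red) and AF25-low cells (open blue) for the 16 alanine tRNA loci with at least 20 reads, grouped by anticodon. Both abundant AlaTGC loci, chr11.trna2022 and chr13.trna68, lie between 187 and 363 RPM and stand above every other locus, and the points of chr13.trna70-AlaCGC lie on top of each other.

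AlaTGC rested on 2 loci. The locus chr11.trna2022-AlaTGC had 314 RPM in AF25-high PMFs (9074 reads) against 363 RPM in AF25-low PMFs (10578 reads), a ratio of 0.865 (0.841 to 0.890). It alone held 37.3% of all alanine reads in AF25-high PMFs against 40.3% in AF25-low PMFs. RefSeq has 1 AlaTGC gene on chromosome 11, n-TAtgc9, from 48834429 to 48834500, within the span of Trim7 (an E3 ubiquitin ligase) and outside its exons. The locus chr13.trna68-AlaTGC had 187 RPM in AF25-high PMFs (5393 reads) against 217 RPM in AF25-low PMFs (6302 reads), a ratio of 0.863 (0.832 to 0.895). RefSeq has 1 AlaTGC gene on chromosome 13, n-TAtgc11, from 21240945 to 21241016. Both loci had the same ratio within counting error, and each kept its share of AlaTGC reads. That share was 61.5% in AF25-high PMFs against 60.9% in AF25-low PMFs for chr11.trna2022, and 36.5% in AF25-high PMFs against 36.3% in AF25-low PMFs for chr13.trna68. RefSeq lists 11 AlaTGC genes and the table has 7, and shared reads go to a single locus, so the 2 ratios may not be independent.

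The remaining AlaTGC loci were rare and did not move together. The locus chr5.trna702-AlaTGC had 139 reads in AF25-high PMFs against 332 in AF25-low PMFs, a ratio of 0.422 (0.344 to 0.516). This was the lowest ratio among the 16 loci and the only one at least 1.5-fold below 1. On chromosome X, chrX.trna371-AlaTGC had 96 reads in AF25-high PMFs against 79 in AF25-low PMFs, with a ratio of 1.23 and an interval that held 1 (0.901 to 1.67), and it lies below 1 with the authors' size factors (0.911). The locus chrX.trna375-AlaTGC had 49 reads in AF25-high PMFs against 61 in AF25-low PMFs, a ratio of 0.810, and its interval held 1 as well (0.545 to 1.1996).

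AlaAGC reads were divided among several loci of like abundance, which went in opposite directions. The locus chr13.trna966-AlaAGC was the most abundant of them in AF25-high, with 69.6 RPM from 2007 reads, against 39.9 RPM from 1160 reads in AF25-low PMFs (ratio 1.74, 1.62 to 1.88). In AF25-low cells chr13.trna71-AlaAGC led instead, with 50.2 RPM in AF25-high PMFs (1448 reads) against 68.4 RPM in AF25-low PMFs (1990 reads) (ratio 0.734, 0.685 to 0.786). The share of AlaAGC reads assigned to chr13.trna966 was 29.9% in AF25-high PMFs against 18.5% in AF25-low PMFs, and that of chr13.trna71 was 21.6% in AF25-high PMFs against 31.7% in AF25-low PMFs. The most abundant AlaAGC locus thus differed between the libraries, and in AF25-low PMFs chr13.trna66-AlaAGC also had more reads than chr13.trna966.

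Of the 4 further AlaAGC loci of chromosome 13, chr13.trna66 and chr13.trna69 were lower in AF25-high on the RPM scale, and the intervals of the others held 1. The locus chr13.trna66-AlaAGC had 1373 reads in AF25-high PMFs against 1530 in AF25-low PMFs (ratio 0.905, 0.841 to 0.974), and chr13.trna69-AlaAGC had 618 in AF25-high PMFs against 733 in AF25-low PMFs (ratio 0.850, 0.763 to 0.948). For chr13.trna102-AlaAGC, with 232 reads in AF25-high PMFs against 215 in AF25-low PMFs, the interval held 1 (1.09, 0.9001 to 1.316), and the ratio turns to 0.809 with the authors' size factors. The locus chr13.trna963-AlaAGC had 41 reads in AF25-high PMFs against 32 in AF25-low PMFs (ratio 1.29, 0.794 to 2.12, and 0.961 with the authors' size factors). The opposite differences nearly cancelled: the AlaAGC loci of chromosome 13 together had 5719 reads in AF25-high PMFs against 5660 in AF25-low PMFs, a ratio of 1.02 (0.982 to 1.06), or 0.758 with the authors' size factors. RefSeq lists 9 AlaAGC genes on this chromosome and the table has 6, and reads that match more than 1 of them go to a single locus, so exchange of shared reads between loci and a change of each locus cannot be told apart.

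AlaAGC loci outside chromosome 13 were higher in AF25-high with library totals, with the authors' size factors and with TMM, while with the total of the tRNA table the interval held 1. Together they had 986 reads in AF25-high PMFs against 613 in AF25-low PMFs, a ratio of 1.62 (1.47 to 1.80), which was 1.21 (1.09 to 1.34) with the authors' size factors, 1.10 (0.996 to 1.22) with the total of the tRNA table and 1.08 (0.975 to 1.1965) against the other tRNAs. Most of these reads came from chr5.trna110-AlaAGC, with 31.4 RPM in AF25-high PMFs (905 reads) against 20.2 RPM in AF25-low PMFs (587 reads) (ratio 1.55, 1.40 to 1.73). RefSeq has 1 AlaAGC gene on chromosome 5, n-TAagc15, from 30888515 to 30888587. The locus chr19.trna8-AlaAGC had the highest ratio of the 16 loci, 3.75 (2.20 to 6.71), at 67 reads in AF25-high PMFs against 18 in AF25-low PMFs. RefSeq has n-TAagc9 on chromosome 19, from 3576263 to 3576335.

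**Figure D4:**
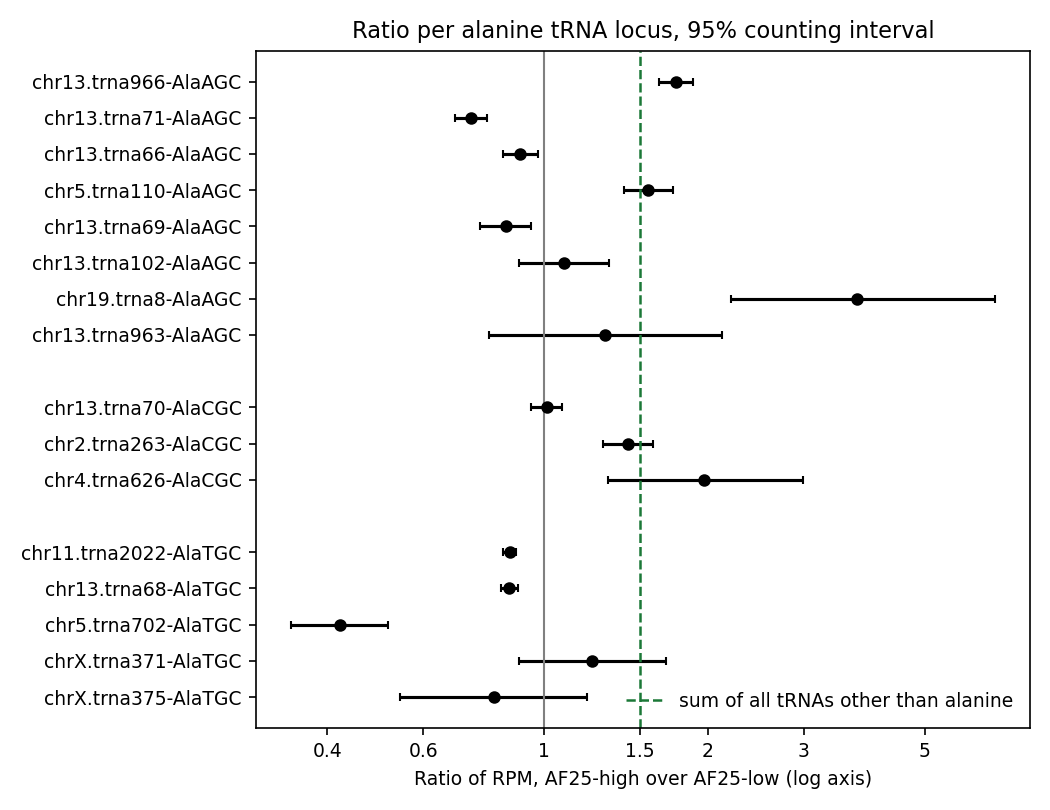
AF25-high to AF25-low ratio of RPM (horizontal log axis) for the 16 alanine loci, with exact 95% counting intervals as bars, a solid line at 1 and a dashed line at the ratio of all other tRNAs (1.502). Loci of AlaAGC lie on both sides of 1 with intervals that do not overlap, such as chr13.trna966 at 1.74 and chr13.trna71 at 0.734, while both abundant AlaTGC loci lie at about the same ratio below 1.

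AlaCGC was carried by a locus that hardly differed between the libraries. The locus chr13.trna70-AlaCGC had 66.9 RPM in AF25-high PMFs (1930 reads) against 66.2 RPM in AF25-low PMFs (1926 reads), a ratio of 1.01 (0.948 to 1.08), or 0.752 with the authors' size factors. The locus chr2.trna263-AlaCGC had 30.3 RPM in AF25-high PMFs (875 reads) against 21.3 RPM in AF25-low PMFs (619 reads) (ratio 1.43, 1.28 to 1.58, but 0.969 with the total of the tRNA table). RefSeq has n-TAcgc8 on chromosome 2, from 57182078 to 57182149, within the span of the noncoding gene 4930555B11Rik and outside its exons. The locus chr4.trna626-AlaCGC had 74 reads in AF25-high PMFs against 38 in AF25-low PMFs, a ratio of 1.96 (1.31 to 2.99). Its ratio was 1.46 with the authors' size factors and 1.34 with the total of the tRNA table, without intervals for these. RefSeq has n-TAcgc3 on chromosome 4, from 132125259 to 132125330, within the span of Oprd1, the delta opioid receptor gene, and outside its exons. As the reads are assigned here, the ratio of AlaCGC above 1 came from its loci outside chromosome 13. These had 957 reads in AF25-high PMFs against 673 in AF25-low PMFs (ratio 1.43, 1.30 to 1.59, but 0.975 with the total of the tRNA table). The direction of AlaCGC itself is not settled, since its reads behind 1 listed RPM differed 1.30-fold between the libraries.

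The 8 remaining loci were near the limit of detection, with 37 reads in AF25-high PMFs against 37 in AF25-low PMFs in all. Of these loci, 5 lay on chromosome X, 2 on chromosome 10 and 1 on chromosome 4. No single one of them had more than 12 reads in AF25-high or 11 in AF25-low PMFs. The locus chr4.trna645-AlaAGC had 0 reads in AF25-high PMFs against 1 in AF25-low PMFs, both under the floor of 3 reads that a count of 0 allows, so no fold is given. Of chromosome X, all 7 loci together had 168 reads in AF25-high PMFs against 169 in AF25-low PMFs (ratio 1.00, 0.805 to 1.25), although RefSeq lists as many alanine genes there as on chromosome 13. Reads that match several loci go to a single one, so how many reads the genes of chromosome X gave is not settled. The 8 loci of chromosome 13 held 13042 reads in AF25-high PMFs against 13888 in AF25-low PMFs, a ratio of 0.947 (0.925 to 0.970).

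Summed over all 24 loci, those with more RPM in AF25-high differed by 55.5 RPM in sum and the others by -112.9 RPM. The net difference was -57.4 RPM for the family. These sums include the 8 loci near the limit of detection, whose directions are not settled. The 2 abundant AlaTGC loci together had 501 RPM in AF25-high PMFs against 580 RPM in AF25-low PMFs (ratio 0.864, 0.845 to 0.884). Without them, the alanine loci came to 343 RPM in AF25-high PMFs against 322 RPM in AF25-low PMFs, a ratio of 1.07 (1.04 to 1.10) that turns to 0.793 with the authors' size factors. As the reads are assigned here, the direction of the alanine sum on the RPM scale was thus set by these 2 loci. Even the ratio without them was below that of all other tRNAs. AlaTGC has more reads behind 1 listed RPM than AlaAGC or AlaCGC, so the ratio without these loci depends on the assignment of shared reads.

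Beside the other tRNAs whose first anticodon base is deaminated to inosine, AlaAGC took a middle place. The 7 other anticodons of this kind summed to 2910 RPM in AF25-high PMFs against 2522 RPM in AF25-low PMFs, a ratio of 1.15 (1.14 to 1.17), or 0.858 with the authors' size factors. The ratio was 2.05 (1.61 to 2.62) for ProAGG, 2.03 (1.98 to 2.08) for ArgACG, 1.19 (1.17 to 1.21) for IleAAT and 1.16 (1.13 to 1.18) for SerAGA. It was 1.07 (1.03 to 1.11) for ThrAGT, 0.903 (0.847 to 0.963) for ValAAC and 0.644 (0.628 to 0.659) for LeuAAG. The interval of AlaAGC overlapped that of ThrAGT, its nearest neighbour in this order, and lay below that of SerAGA. The place of ValAAC depends on the assignment of shared reads, since its reads behind 1 listed RPM differed between the libraries, at 0.684 as AF25-high over AF25-low, and this turns its ratio above 1 and above that of AlaAGC when divided out. For ProAGG nearly all reads that the listed RPM imply are missing from its loci in the table, so its ratio rests on few reads. Scaled by the authors' size factors, AlaAGC, IleAAT, SerAGA and ThrAGT fall below 1.

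Cysteine tRNA, whose 5′ fragment is also known for a run of guanines at its start, went the other way from the alanine sum. CysGCA had 159 RPM in AF25-high PMFs (4594 reads) against 106 RPM in AF25-low PMFs (3086 reads), a ratio of 1.501 (1.434 to 1.572) with library totals and 0.9995 against the tRNAs other than alanine. The alanine tRNAs and CysGCA together had a ratio of 0.996 (0.980 to 1.01). The mitochondrial mt-Ta, counted in the table of Ensembl noncoding RNAs, had 25.7 RPM in AF25-high PMFs (742 reads) against 12.7 RPM in AF25-low PMFs (369 reads), a ratio of 2.03 (1.79 to 2.30). With library totals, the lower level in AF25-high was seen for the summed cytosolic alanine tRNAs and not for mt-Ta, whose interval lay above 1. Within this sum AlaTGC was lower (0.858), AlaAGC was not (1.08), and the direction of AlaCGC was not settled.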

How the data were processed

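Small RNA of 1 AF25-high and 1 AF25-low library was sequenced by the authors on the DNBseq platform. sRNAbench with Bowtie (versions not given in the sources used here) aligned them to GRCm38 and small RNA databases. Sense reads were counted once, at the locus with the highest expression, and a size factor per library and table was applied to the counts. The deposited signal values are therefore normalized counts. Columns of the authors' fold changes and p-values were not used, nor was the RNAcentral table, whose 93 tRNA entries name no anticodon.

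The lowest value above 0 of a column was taken as 1 read (100% of values were then whole, relative tolerance 1e-06). Library totals were the medians, over 38 anticodons listed at 100 RPM or more in each library, of reads divided by the RPM listed in the study's supplement. By the same division, AlaAGC alone would give a total of 19605263 reads for AF25-high against 19788644 for AF25-low, AlaCGC 17082840 for AF25-high against 13126263 for AF25-low, AlaTGC 44209581 for AF25-high against 44870801 for AF25-low, and the 3 summed 28826036 for AF25-high against 29087583 for AF25-low. Ratios of summed reads carry exact Clopper-Pearson 95% intervals, and ratios between anticodons exact conditional intervals of the odds ratio. Both cover counting error only, since reads are not independent molecules. A minimum of 20 reads in the higher library was set for counts of loci and their median, and every locus that reached 50 reads in either library was named. Rarer loci that are named were chosen after their values were seen. The members, marker lists, comparison lists and this rule were chosen with earlier results of these data known. No test between conditions was run. Alternatives were the authors' size factors, the total of the tRNA table with and without alanine tRNAs, the TMM factor (edgeR 4.0.16 in R 4.3.3, for scaling only), other minimums, a pseudocount of 1 read and leaving out loci. Positions came from RefSeq and GENCODE M21 on GRCm38. Calculations, tested on simulated reads, ran in Python 3.11.15 (matplotlib 3.10.9, scipy 1.17.1, pandas 2.3.3, numpy 2.4.6).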

Additional observations from a re-analysis of the deposited data

How the results depend on the processing

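With 1 library per group, no replicate could be left out. No paired analysis was possible because each group has 1 library. Scaling decides the level of every alanine ratio. The alanine sum was 0.936 with library totals, 0.696 with the authors' size factors, 0.703 with TMM, 0.637 with the total of the tRNA table and 0.623 with that total without alanine tRNAs. In the same order of these 4 alternatives, AlaTGC (0.858) became 0.638, 0.644, 0.583 and 0.571, AlaAGC (1.08) turned to 0.802, 0.809, 0.733 and 0.718, and AlaCGC (1.12) turned to 0.833, 0.841, 0.762 and 0.746. Without its most abundant locus, the alanine sum was 0.984 with an interval that held 1 (0.963 to 1.01), AlaAGC 1.24 and AlaCGC 1.43. Leaving out the loci of chromosome 13, an alternative chosen after seeing the data, gave 1.62 for AlaAGC and 1.43 for AlaCGC. AlaTGC stayed within its interval without its most abundant locus (0.846) and without chromosome 13 (0.854), as did the alanine sum without chromosome 13 (0.924).

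The median log2 ratio of alanine loci, 0.07, became -0.36 with the authors' size factors and -0.49 with the total of the tRNA table. With these 2 scalings, 11 and 12 of 16 loci lay below 1 in place of 7, 6 and 7 were at least 1.5-fold lower in place of 1, and 1 and 1 at least 1.5-fold higher in place of 4. Both scalings move every tRNA locus down alike, and with the size factors 71 of all 149 tRNA loci lay below 1. The 1.5-fold counts over all tRNA loci were not taken with these scalings. Whether those of the alanine loci are particular to them was not tested. With library totals and a minimum of more than 3 reads in the higher library, 21 loci remained. Of these, 2 were at least 1.5-fold lower. The other minimums and the pseudocount of 1 read left the remaining counts within 1.5 times and the median between 0.02 and 0.26. For the 8 loci under 20 reads no difference was detectable. Low depth and the assignment of shared reads to other loci cannot be told apart there.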
